A study of Mus musculus with 6 samples.

Results

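The genes described are 36 genes of DNA replication and the cell cycle, taken by symbol from a list built on their known functions: cyclins and their kinases, inhibitors, RB and E2F factors, origin licensing and helicase genes, nucleotide supply genes and mitotic genes. Of these, 35 were matched by Ensembl identifier to 1 of the 20894 genes of the count table, and counts of Mcm3 were not analysed here. A further 6 had too few counts to test (Ccnd2, Ccnb1, Cdk2, Cdc6, Rrm2 and Tyms), which left 29.

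The samples are 6 mouse liver samples, of which 3 form the IRF3-2D group and 3 the Ctrl group. All mice carried Irf3LSL-2D, an allele with a loxP-flanked stop ahead of a constitutively active form of IRF3, the transcription factor of the antiviral response. In the IRF3-2D group the adeno-associated virus AAV8-TBG-Cre was given to remove the stop, while the Ctrl group received AAV8-TBG-GFP. TBG is a promoter active in hepatocytes, so Cre acts mainly in that cell type, and RNA was taken from whole liver tissue. Both groups had ethanol injected into the abdomen at 3 g/kg, and livers were taken 2 h later, so every value below describes liver after ethanol. Age and sex of the mice are not given in the labels used here, and Cre and GFP differ between the groups along with active IRF3, so their parts cannot be told apart.

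A cell commits to division when D-type cyclins with CDK4 or CDK6, then cyclin E with CDK2, phosphorylate RB and release E2F transcription factors. E2F factors turn on genes that license replication origins, unwind DNA and make nucleotides, and a second set of genes, repressed by the DREAM complex outside the cell cycle, serves G2 and mitosis. Inhibitors of the INK4 kind act on CDK4 and CDK6, and those of the CIP/KIP kind act mainly on cyclin E and cyclin A kinases. In the adult liver most hepatocytes rest outside the cycle, and they can re-enter it after injury or loss of tissue, when Ccnd1 is a known early marker.

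Of the 29 tested genes 5 changed between the groups. Ccne1, which encodes cyclin E1, rose 8.48-fold in IRF3-2D liver, and Pcna, the sliding clamp of DNA polymerase, rose 1.68-fold. Ccnd1 (cyclin D1) fell 2.94-fold, Cdkn2c (the INK4 inhibitor p18) fell 3.11-fold and Cdt1 (a loader of the replicative helicase) fell 1.97-fold. The mitotic genes Mki67, Top2a, Plk1, Bub1 and Aurka were not called, and their groups overlapped. Calls are at a Benjamini-Hochberg adjusted p under 0.05 by edgeR's quasi-likelihood test over 10802 genes.

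The 2 higher members are 6.9% of the 29 tested, beside 13.2% of all tested genes called higher, and the 3 lower members are 10.3%, beside 13.1% of all tested genes called lower. Neither share was above that of the liver transcriptome at large. For 6 members each IRF3-2D library lay above every Ctrl library, beside 23.7% of all tested genes, and for 3 each lay below, beside 21.2%. The median log2 fold change of the 29 was 0.61, against 0.03 over all tested genes, with 22 of the 29 positive against 52.4% of all genes. Without IRF3-2D replicate 2 the median was 0.37, with 20 of the 29 positive. These genes were also less abundant and less precisely measured, with a median of 80.8 counts per library against 213.9 and a median standard error of 0.38 against 0.20 on the log2 scale. Among the 17 members with a mean count of at least 50 the median was 0.29. The scaling between libraries bears on this: with library totals alone, 11 members were higher (41.7% of all genes were) and 3 lower (5.29% of all genes were), and the median of all genes itself moved to 0.49.

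The promoters of the called genes Ccne1, Pcna, Cdkn2c and Cdt1 are shown first, with a pair of uncalled members whose windows hold the classical cell cycle elements. Windows run from 250 bases before to 50 bases after the RefSeq start (GRCm38.p6), written 5′ to 3′ on the gene's strand, and the first listed window was used for the 29 members that have one. Capitals mark matches on either strand to the E2F element (TTTCCCGC, TTTGGCGC, TTTCGCGC or TTTGCCGC), the CHR element of DREAM targets (TTTGAA), the CCAAT box bound by NF-Y, and the core of the element bound by IRF factors (GAAANNGAA).
Ccne1, chr7:38107441-38107740, minus strand: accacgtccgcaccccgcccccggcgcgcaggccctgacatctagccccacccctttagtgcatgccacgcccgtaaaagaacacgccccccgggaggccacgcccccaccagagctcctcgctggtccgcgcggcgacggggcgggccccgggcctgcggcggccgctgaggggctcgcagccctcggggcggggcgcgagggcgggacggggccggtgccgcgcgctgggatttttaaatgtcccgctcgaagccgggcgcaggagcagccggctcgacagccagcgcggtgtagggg
Pcna, chr2:132253131-132253430, minus strand: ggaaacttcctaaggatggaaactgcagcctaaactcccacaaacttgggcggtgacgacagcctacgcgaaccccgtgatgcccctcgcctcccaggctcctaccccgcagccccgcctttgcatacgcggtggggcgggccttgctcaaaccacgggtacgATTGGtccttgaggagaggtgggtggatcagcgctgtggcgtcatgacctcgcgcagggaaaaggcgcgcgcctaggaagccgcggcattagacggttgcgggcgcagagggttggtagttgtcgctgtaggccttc
Cdkn2c, chr4:109666707-109667006, minus strand: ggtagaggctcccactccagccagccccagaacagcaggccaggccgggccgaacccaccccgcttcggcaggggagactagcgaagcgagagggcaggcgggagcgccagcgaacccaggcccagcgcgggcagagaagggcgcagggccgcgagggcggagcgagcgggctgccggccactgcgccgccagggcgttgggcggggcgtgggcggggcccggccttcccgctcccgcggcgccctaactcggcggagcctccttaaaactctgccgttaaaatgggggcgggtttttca
Cdt1, chr8:122567765-122568064, plus strand: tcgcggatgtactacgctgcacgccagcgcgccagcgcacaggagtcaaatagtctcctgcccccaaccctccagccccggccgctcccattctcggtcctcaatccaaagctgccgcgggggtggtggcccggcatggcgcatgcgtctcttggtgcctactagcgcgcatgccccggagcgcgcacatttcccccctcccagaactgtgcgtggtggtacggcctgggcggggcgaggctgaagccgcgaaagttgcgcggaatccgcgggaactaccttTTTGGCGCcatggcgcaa
Mcm6, chr1:128359656-128359955, minus strand: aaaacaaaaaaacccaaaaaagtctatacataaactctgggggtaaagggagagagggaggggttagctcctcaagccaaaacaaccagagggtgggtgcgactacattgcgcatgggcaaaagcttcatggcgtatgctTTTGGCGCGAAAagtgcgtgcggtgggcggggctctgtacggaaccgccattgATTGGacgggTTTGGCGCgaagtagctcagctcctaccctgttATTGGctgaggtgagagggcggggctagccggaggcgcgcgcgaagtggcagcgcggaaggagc
Top2a, chr11:99024140-99024439, minus strand: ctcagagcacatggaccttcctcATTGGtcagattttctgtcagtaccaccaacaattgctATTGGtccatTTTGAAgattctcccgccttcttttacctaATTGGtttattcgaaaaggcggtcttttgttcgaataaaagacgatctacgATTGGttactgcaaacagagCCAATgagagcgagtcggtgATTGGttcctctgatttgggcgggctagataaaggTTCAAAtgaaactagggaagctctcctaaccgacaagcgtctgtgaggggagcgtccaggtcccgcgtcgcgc

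The 29 members with a window are not the 29 tested members. They include the untested Ccnb1, Cdk2, Mcm3, Cdc6, Rrm2 and Tyms. The called gene Ccnd1 and the tested Ccne2, Ccna2, Rb1, Mcm4 and Gins2 had no window. An E2F element was found in 9 of the 29 member windows (31%), against 2.32% of the 27025 genes with a window. A CHR was found in 9 (31%, against 18.1% of all genes) and a CCAAT box in 20 (69%, against 37.9%). The Cdt1 window holds 1 E2F match, Pcna holds 1 CCAAT box, and the first windows of Ccne1 and Cdkn2c hold none of the searched letters. Mcm6, a subunit of the replicative helicase, has 3 E2F matches, of which 1 pair overlaps, and Top2a, the topoisomerase that untangles chromosomes for mitosis, has 6 CCAAT boxes and 2 CHR elements. Overlaps between matches occurred in 2 further windows, within the E2F matches of Mcm5 and between a CCAAT box and an E2F match of Mcm7. The IRF core was found in 1 member window, that of E2f8 (3.45%, against 8.57% of all genes). These are matches of letters and not shown sites.

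**Figure D1:**
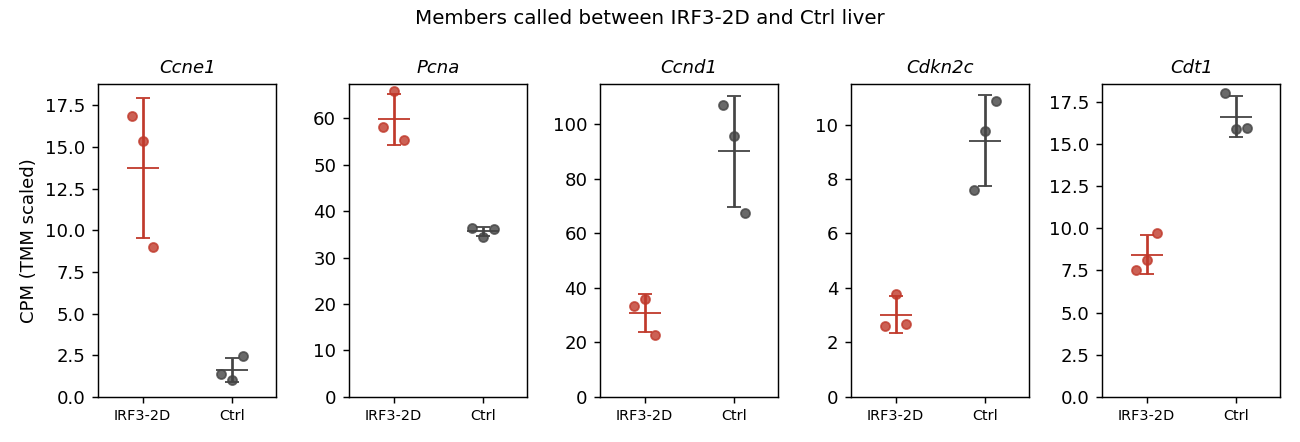
Levels of the 5 called members in each liver library, in CPM scaled by TMM, with each axis starting at 0. Points are libraries, and bars are the mean and SD of 3 libraries. The IRF3-2D libraries stand above all Ctrl libraries for Ccne1 and Pcna, and below them for Ccnd1, Cdkn2c and Cdt1.

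Among the D-type cyclins and their kinases, Ccnd1 was the one that changed. Its level was 33.4, 35.8 and 22.7 CPM in the IRF3-2D libraries, against 107, 95.6 and 67.5 CPM in the Ctrl libraries. CPM are counts relative to the library total after TMM scaling (trimmed mean of M-values, which lessens the weight of a few very abundant genes). The groups did not overlap, and the lowest Ctrl library still stood well above the highest IRF3-2D library. The log2 fold change was -1.55 (SE 0.22, adjusted p = 0.0030 by edgeR, n = 3 each). Ccnd1 (ENSMUSG00000070348) lies on the minus strand of chromosome 7, from 144929931 to 144939925 in GENCODE M21 on GRCm38. Its exons share 1100 of their 4709 bases with exons of LTO1 on the plus strand. The libraries were strand-specific, but the strand setting of the counting is not given. Whether reads of the 2 genes were kept apart there is therefore not known.

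The other D-type cyclins gave no call. Ccnd3, the D-type cyclin best known from lymphoid cells, stood at 30.6 ± 2.08 CPM in IRF3-2D and 26.1 ± 4.001 CPM in Ctrl liver (SD, n = 3 each), and it was not called (log2 fold change 0.23, SE 0.13, adjusted p = 0.24 with edgeR). With library totals alone Ccnd3 was called higher (log2 fold change 0.69, adjusted p = 0.0052 with edgeR). Ccnd2 was listed at 0 to 2 counts in the IRF3-2D libraries and 0 to 4 in the Ctrl libraries. A value at or near 0 in this table does not show that a gene was silent, since Cdk9 and Rpa2, which most cells use, were also listed at 0 to 2 counts in the IRF3-2D libraries and 0 to 2 in the Ctrl libraries. Per kilobase of the longest annotated coding transcript, the level of Ccnd3 was 1.56, 1.63 and 2.27 times that of Ccnd1 in the IRF3-2D libraries, against 0.358, 0.545 and 0.712 times in the Ctrl libraries. Ccnd1 was therefore the more abundant D-type cyclin transcript per length in each Ctrl library, and Ccnd3 in each IRF3-2D library. This order assumes the longest transcript for both genes, and Ccnd3 has 21 annotated transcripts.

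The partner kinases were Cdk6, at 39.1 ± 4.06 CPM in IRF3-2D and 41.9 ± 13.8 CPM in Ctrl liver, and Cdk4, at 2.75 ± 1.28 CPM in IRF3-2D and 1.68 ± 0.401 CPM in Ctrl liver (SD, n = 3 each). Both groups of libraries overlapped for either kinase, and neither was called (adjusted p = 0.77 and 0.29 by edgeR). Cdk4 rested on 16 to 64 counts a library.

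Cyclin E1 had the largest change of the 29 genes, and its fold ranked 166 among the 10802 tested. Ccne1 stood at 16.9, 15.4 and 8.98 CPM in the IRF3-2D libraries, against 1.39, 1.01 and 2.42 CPM in the Ctrl libraries. As estimated counts these were 261, 227 and 137 in the IRF3-2D libraries, against 17, 12 and 31 in the Ctrl libraries. The lowest IRF3-2D library was above the highest Ctrl library by several fold, and replicate 3 was the lowest of its group. The log2 fold change was 3.08 (SE 0.40, adjusted p = 0.0018 by edgeR, n = 3 each), and it lay between 2.84 and 3.54 under 14 alternatives. Ccne1 (ENSMUSG00000002068, chromosome 7, 38097984 to 38107534, minus strand) shares no exonic base with another annotated gene and 0.075% of its 31-base words with other genes' transcripts.

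Its sister Ccne2 was at 1.88, 4.07 and 2.95 CPM in the IRF3-2D libraries, against 0.980, 2.78 and 1.88 CPM in the Ctrl libraries. These ranges overlapped and Ccne2 was not called (log2 fold change 0.66, SE 0.49, adjusted p = 0.37 by edgeR). Per length of the longest transcript, Ccne1 was 4.58 to 13.5 times as abundant as Ccne2 in the IRF3-2D libraries and 0.546 to 2.13 times in the Ctrl libraries. Set against Ccnd1 on the same per-length scale, Ccne1 reached 0.944, 0.802 and 0.738 of its level in the IRF3-2D libraries, against 0.0242, 0.0197 and 0.0672 in the Ctrl libraries. The ranges of the groups lie far apart.

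Cdk2, the kinase that cyclin E activates, had 27, 0 and 0 counts in the IRF3-2D libraries and 71, 0 and 8 in the Ctrl libraries, and it was too low to test. Zeros and far higher counts thus stood side by side within each group, and the part of the authors' counting in this was not tested. Ccna2, the cyclin of S phase, stood at 3.49, 5.15 and 2.36 CPM in the IRF3-2D libraries, against 2.21, 2.44 and 1.33 CPM in the Ctrl libraries. Ccnb2, a mitotic cyclin and the only tested member with 1 annotated transcript, stood at 1.42, 2.37 and 1.18 CPM in the IRF3-2D libraries, against 0.899, 0.252 and 0.625 CPM in the Ctrl libraries. The groups overlapped for Ccna2 and did not for Ccnb2, and neither passed after adjustment (log2 fold changes 0.88 and 1.47, adjusted p = 0.17 and 0.11 by edgeR). Both were called higher with library totals alone (adjusted p = 0.039 and 0.035). Cdk1, the mitotic kinase, was at 2.06 ± 0.895 CPM in IRF3-2D and 1.32 ± 0.395 CPM in Ctrl liver (SD, n = 3 each; adjusted p = 0.37 by edgeR). Ccnb1 had no count in any library, and 27.7% of its sequence words occur in other genes. The limit that a count of 0 allows (3 counts) was 0.202 to 0.249 CPM of the unscaled library totals. This limit covers counting error only. Zeros stood beside far higher counts for Cdk2, so it is not an upper bound of the level of Ccnb1.

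**Figure D2:**
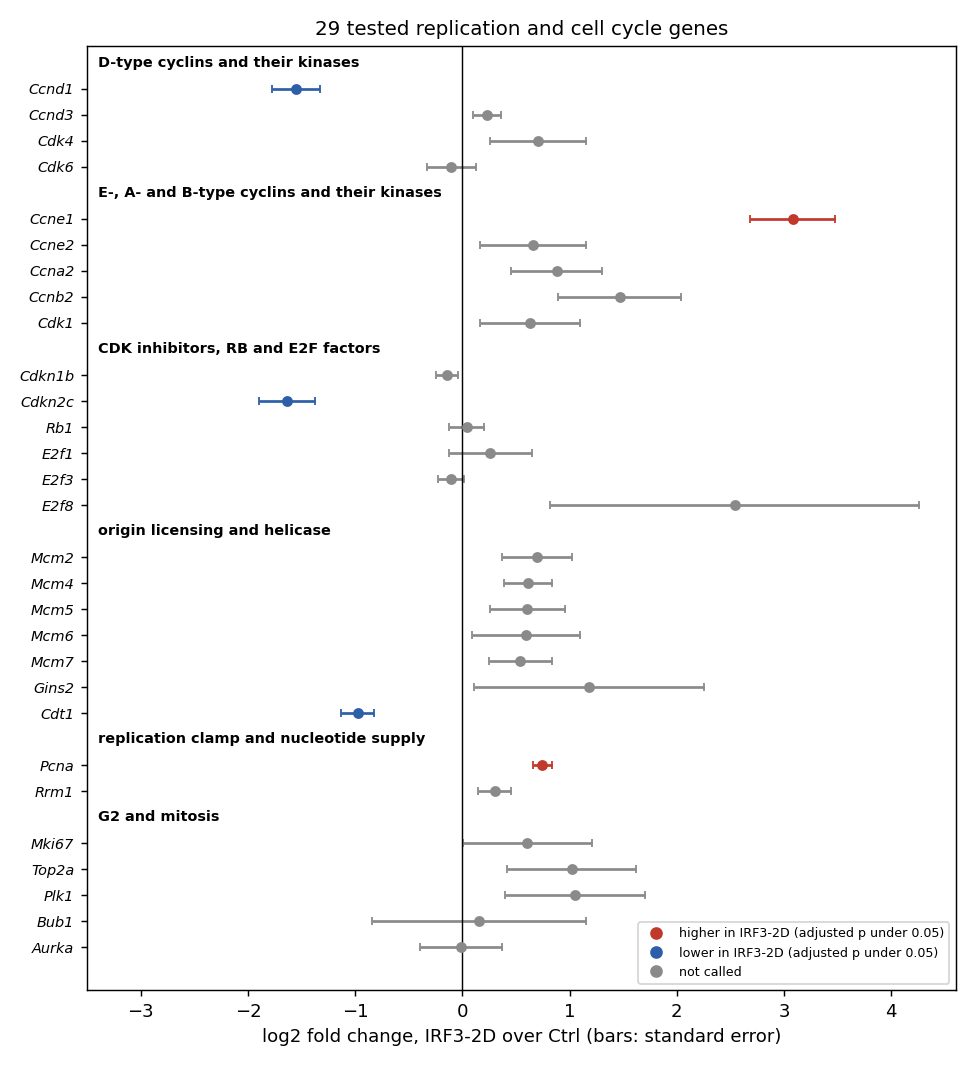
Log2 fold change of IRF3-2D over Ctrl for the 29 tested members, grouped by role, with bars of 1 standard error (n = 3 each). Red points were called higher, blue points lower and grey points not called. Ccne1 lies at 3.08, while the 5 MCM genes cluster between 0.54 and 0.70 without a call.

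Of the inhibitors, RB and E2F factors, 1 of 6 changed. Cdkn2c, which holds CDK4 and CDK6 inactive, stood at 2.59, 3.79 and 2.69 CPM in the IRF3-2D libraries, against 7.60, 9.76 and 10.9 CPM in the Ctrl libraries. Every IRF3-2D library was below every Ctrl library. The log2 fold change was -1.64 (SE 0.26, adjusted p = 0.0044 by edgeR, n = 3 each). Cdkn2c (ENSMUSG00000028551, chromosome 4, 109660876 to 109667189, minus strand) shares neither exonic bases nor sequence words with another gene.

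Cdkn1b, which encodes the CIP/KIP inhibitor p27, differed little, at 22.8 ± 1.15 CPM in IRF3-2D and 25.2 ± 2.01 CPM in Ctrl liver (SD, n = 3 each). Its log2 fold change was -0.14 (SE 0.10, adjusted p = 0.35 by edgeR), but with library totals alone it was 0.31 and called higher (adjusted p = 0.038), so no direction can be given. Rb1, the retinoblastoma gene, was at 19.1 ± 3.26 CPM in IRF3-2D and 18.6 ± 2.17 CPM in Ctrl liver, and E2f3, an activating E2F, was at 16.4 ± 1.06 CPM in IRF3-2D and 17.7 ± 1.35 CPM in Ctrl liver. Neither was called (adjusted p = 0.88 and 0.55 by edgeR), although Rb1 was called higher with library totals alone (log2 fold change 0.49, adjusted p = 0.039). E2f1, the E2F best known for driving entry into S phase, was at 3.06 ± 0.956 CPM in IRF3-2D and 2.55 ± 0.659 CPM in Ctrl liver (SD, n = 3 each; adjusted p = 0.66 by edgeR). E2f8, a repressive E2F of polyploid hepatocytes, had 75, 0 and 22 counts in the IRF3-2D libraries and 13, 0 and 0 in the Ctrl libraries, a pattern too uneven for any call (log2 fold change 2.54, SE 1.72, adjusted p = 0.32 by edgeR).

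Origin licensing genes gave 1 call, a fall, while the helicase subunits all had positive but uncalled fold changes. Cdt1 loads the MCM helicase onto origins together with Cdc6. It stood at 7.503, 8.13 and 9.70 CPM in the IRF3-2D libraries, against 18.1, 15.9 and 15.9 CPM in the Ctrl libraries, with no overlap. The log2 fold change was -0.98 (SE 0.16, adjusted p = 0.0046 by edgeR, n = 3 each), and it shrank to -0.53 with library totals alone, where it was still called (adjusted p = 0.034). Cdt1 (ENSMUSG00000006585, chromosome 8, 122568015 to 122573554, plus strand) shares no sequence words with other genes. Cdc6 had 15, 0 and 0 counts in the IRF3-2D libraries and 6, 0 and 1 in the Ctrl libraries, too few to test.

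The MCM genes encode the ring of the replicative helicase, and 5 of the 6 listed were tested. Mcm2 stood at 10.5, 5.15 and 6.75 CPM in the IRF3-2D libraries, against 5.80, 3.79 and 4.22 CPM in the Ctrl libraries. Mcm4 stood at 9.96, 7.86 and 6.69 CPM in the IRF3-2D libraries, against 5.80, 4.96 and 5.24 CPM in the Ctrl libraries. The groups overlapped for Mcm2 and were separate for Mcm4. Mcm7 was at 3.08 ± 0.232 CPM in IRF3-2D and 2.11 ± 0.011 CPM in Ctrl liver, also without overlap, though 26.8% of its sequence words occur in other genes. Mcm5 was at 5.08 ± 0.837 CPM in IRF3-2D and 3.34 ± 1.36 CPM in Ctrl liver, and Mcm6 at 1.44 ± 0.665 CPM in IRF3-2D and 0.953 ± 0.217 CPM in Ctrl liver (SD, n = 3 each). Their log2 fold changes lay within 0.54 to 0.70 and their adjusted p-values between 0.085 and 0.43 by edgeR, so none passed. With library totals alone Mcm2, Mcm4 and Mcm7 were called higher (log2 fold changes 1.14, 1.07 and 0.99). Gins2, a subunit of the GINS complex that joins the helicase, had 41, 107 and 110 counts in the IRF3-2D libraries and 69, 0 and 24 in the Ctrl libraries, and was not called (adjusted p = 0.46 by edgeR).

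Of the clamp and nucleotide supply genes, Pcna changed. It stood at 58.2, 65.9 and 55.4 CPM in the IRF3-2D libraries, against 36.4, 34.5 and 36.1 CPM in the Ctrl libraries. The groups were far apart relative to their spread, and the Ctrl libraries lay close together. The log2 fold change was 0.75 (SE 0.09, adjusted p = 0.0014 by edgeR, n = 3 each). Pcna (ENSMUSG00000027342, chromosome 2, 132249162 to 132253314, minus strand) serves DNA repair as well as replication, and 23.3% of its sequence words also occur in transcripts of other genes, so its level is uncertain to that extent.

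Rrm1, the large subunit of the ribonucleotide reductase that makes deoxynucleotides, was at 18.8, 19.5 and 18.9 CPM in the IRF3-2D libraries, against 18.6, 13.5 and 14.2 CPM in the Ctrl libraries. Ctrl replicate 1 lay almost at the level of the IRF3-2D libraries, and Rrm1 was not called (log2 fold change 0.30, SE 0.15, adjusted p = 0.19 by edgeR). Without Ctrl replicate 1 it was called higher (log2 fold change 0.45, adjusted p = 0.038), which made 3 higher members, and it was also called with library totals alone (0.75, adjusted p = 0.0099). Rrm2, the small subunit of that enzyme, had 0 to 5 counts in the IRF3-2D libraries and 0 to 1 in the Ctrl libraries. Tyms, which makes thymidylate, had no count in any library, and 9.82% of its sequence words occur in other genes.

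None of the 5 genes of G2 and mitosis was called, and Mki67, Top2a, Plk1 and Bub1 spread widely within each group. Mki67, the gene of the Ki-67 proliferation antigen, stood at 6.92, 17.2 and 3.801 CPM in the IRF3-2D libraries, against 10.1, 4.21 and 4.06 CPM in the Ctrl libraries. Top2a stood at 8.86, 11.5 and 2.95 CPM in the IRF3-2D libraries, against 6.62, 2.02 and 2.81 CPM in the Ctrl libraries. The highest library of each gene was IRF3-2D replicate 2, and within the Ctrl group replicate 1 stood above the other two. Plk1, a kinase that drives entry into mitosis, was at 1.68, 2.10 and 0.459 CPM in the IRF3-2D libraries, against 0.980, 0.589 and 0.469 CPM in the Ctrl libraries. Bub1, of the spindle checkpoint, had 14, 10 and 1 counts in the IRF3-2D libraries and 11, 6 and 1 in the Ctrl libraries, and Aurka, the spindle pole kinase, was at 1.87 ± 0.318 CPM in IRF3-2D and 1.88 ± 0.480 CPM in Ctrl liver (SD, n = 3 each). The log2 fold changes were 0.61, 1.02, 1.05, 0.16 and -0.01 in that order, with adjusted p = 0.50, 0.26, 0.28, 0.92 and 0.99 by edgeR. Without IRF3-2D replicate 2 the log2 fold change of Mki67 was -0.19.

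**Figure D3:**
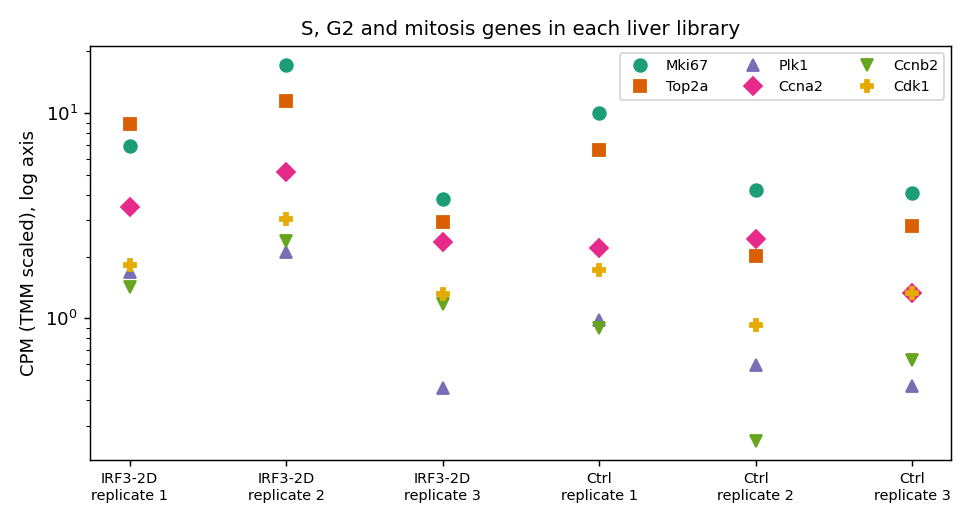
Levels of Mki67, Top2a, Plk1, Ccna2, Ccnb2 and Cdk1 in each of the 6 liver libraries, in TMM-scaled CPM on a log axis. Each point is 1 library. All 6 genes peak in IRF3-2D replicate 2, and IRF3-2D replicate 3 is the lowest of its group for all 6.

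Summed over the 5 genes of G2 and mitosis, the level was 20.4, 33.5 and 8.78 CPM in the IRF3-2D libraries, against 20.6, 8.66 and 9.69 CPM in the Ctrl libraries. IRF3-2D replicate 3 was thus near the lower Ctrl libraries, and Ctrl replicate 1 was near IRF3-2D replicate 1. Within the IRF3-2D group all 5 were lowest in replicate 3. Among 29 other tested genes of G2 and mitosis 21 were also lowest there within the group, and 18 were highest in replicate 2. Replicate 3 was also lowest within the group for 11 of 16 other arrest genes and 5 of 12 other E2F, DREAM and MYC factors. It was lowest for 9 of 28 other replication genes and 3 of 12 other cyclins and kinases. Of the 29 tested members, 17 were lowest there within the group. Summed endothelial markers were also lowest there (451, 430 and 339 CPM in the IRF3-2D libraries). So were the Kupffer cell and macrophage, monocyte and neutrophil, stellate and cholangiocyte, and erythroid sums. The hepatocyte, T and NK cell and B cell sums were not. The low levels of replicate 3 were not limited to mitotic genes. The share over all tested genes was not counted. In bulk liver, a larger share of dividing cells and more RNA per such cell cannot be told apart.

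Markers of other liver cells also differed between these libraries. The calls below stand beside 13.2% of all tested genes called higher and 13.1% called lower. The sum of 8 monocyte and neutrophil markers was 12.9, 33.1 and 7.28 CPM in the IRF3-2D libraries, against 8.33, 6.22 and 10.2 CPM in the Ctrl libraries. Of the 5 tested, 1 was called higher, Ly6c2. Without Ly6c2 the sums were 8.15, 26.2 and 5.51 CPM in the IRF3-2D libraries, against 7.68, 5.97 and 9.54 CPM in the Ctrl libraries. The groups overlapped with and without it. The sum of 13 T and NK cell markers was 14.0 to 19.7 CPM in the IRF3-2D libraries and 6.14 to 9.80 CPM in the Ctrl libraries, with 1 of 5 tested called higher and Cd3g at 0 throughout. That gene was Ccl5, an interferon-inducible chemokine, and without it the sums were 7.57, 11.6 and 8.91 CPM in the IRF3-2D libraries, against 8.66, 5.30 and 6.49 CPM in the Ctrl libraries, which overlap. IRF3-2D replicate 2 was the highest library for the monocyte and neutrophil sum and for the T and NK cell sum, as it was for Mki67 and Top2a. The sum of 14 Kupffer cell and macrophage markers was 956 to 1304 CPM in the IRF3-2D libraries and 551 to 638 CPM in the Ctrl libraries, with 4 of 13 tested called higher and none lower. Mpeg1, which encodes a pore-forming protein of macrophages, held the largest difference, and without it the sums were 517 to 744 CPM in the IRF3-2D libraries and 448 to 491 CPM in the Ctrl libraries. The sum of 5 B cell markers was 2.10 to 4.08 CPM in the IRF3-2D libraries and 1.80 to 3.43 CPM in the Ctrl libraries, with Pax5 at 0 and none of 2 tested called. Erythroid markers summed to 649 to 1265 CPM in the IRF3-2D libraries and 747 to 1473 CPM in the Ctrl libraries, and none of 5 tested was called. Hepatocyte markers were present throughout, with 7 of 9 tested called lower and 1 higher, endothelial markers had 5 of 9 called lower, and stellate and cholangiocyte markers had 1 of 9 called lower. The part of these cells in the levels of cell cycle genes was not tested.

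Other genes of the same pathways give the setting. Of 28 further replication genes tested, 3 were called higher (10.7%, against 13.2% of all tested genes) and 2 lower (7.14%, against 13.1%). The higher call of Pole4, named after its value was seen, was lost in 10 of 14 alternatives. Tk1, the salvage kinase for thymidine, stood at 6.48 ± 0.400 CPM in IRF3-2D and 14.97 ± 3.11 CPM in Ctrl liver, a 2.31-fold fall (adjusted p = 0.0049 by edgeR, SD, n = 3 each). Pold4, a small subunit of DNA polymerase delta, rose 1.55-fold (adjusted p = 0.0071), and 23.0% of its sequence words occur in other genes too. Fen1, the flap nuclease of lagging strand synthesis, rose 1.90-fold (adjusted p = 0.019), and its call was lost with the replicate block and when IRF3-2D replicate 1, IRF3-2D replicate 2, Ctrl replicate 2 or Ctrl replicate 3 was left out. The median log2 fold change of these 28 was 0.14.

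Of 29 further genes of G2 and mitosis, 3 were called higher (10.3%, against 13.2% of all tested genes) and none lower (against 13.1%). Their median log2 fold change was 0.47. Bub3, a checkpoint gene that also serves outside mitosis, rose 1.36-fold (adjusted p = 0.010 by edgeR). Kif20a, a kinesin of cytokinesis, rose 2.47-fold (adjusted p = 0.038), a call lost in 8 of 13 alternatives, among them each Ctrl library left out and IRF3-2D replicate 1 or 2 left out. Smc4, a condensin subunit, had 140, 182 and 20 counts in the IRF3-2D libraries and 0 in each Ctrl library. With 3 counts put in each Ctrl library, the IRF3-2D mean would be 31.04-fold higher. Zeros in this table can stand beside far higher counts within a group, as for Cdk2, so this is not a lower bound of the change. Its call was lost with limma-voom (adjusted p = 0.071).

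Growth arrest genes outside the 36 had the highest share of calls among these lists. Of 16 tested, 6 were called higher (37.5%, against 13.2% of all tested genes) and 2 lower (12.5%, against 13.1%). This list was chosen with earlier results of these data known, so its share is not independent of them. Ccng1, a p53 target, stood at 101 ± 9.04 CPM in IRF3-2D and 52.4 ± 1.59 CPM in Ctrl liver (SD, n = 3 each), a 1.93-fold rise (adjusted p = 0.00054 by edgeR). Rbl1, which encodes the pocket protein p107 and is itself a known E2F target, rose 3.70-fold, with 11.6, 10.5 and 9.83 CPM in the IRF3-2D libraries against 3.92, 2.61 and 2.11 CPM in the Ctrl libraries (adjusted p = 0.0030). Btg2, an antiproliferative p53 target, rose 2.93-fold (adjusted p = 0.0053), and Gadd45b, a stress gene of growth arrest, fell 3.34-fold (adjusted p = 0.0031). Cdkn1a, the p21 inhibitor of cyclin E and cyclin A kinases, was named after its value was seen: it rose 2.14-fold, to 193, 186 and 163 CPM in the IRF3-2D libraries, against 111, 74.4 and 68.2 CPM in the Ctrl libraries (adjusted p = 0.0059). The calls of these 5 genes held under all 14 alternatives. The higher call of Tob1, named after its value was seen, was lost in 5 of 14.

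Of 12 other E2F, DREAM and MYC factors, 1 was called, a fall (8.33%, against 13.1% of all tested genes). It was Mxi1, a MYC antagonist, which fell 2.14-fold (adjusted p = 0.0021 by edgeR). Of 12 other cyclins and kinases, 3 were called higher (25%, against 13.2% of all tested genes) and none lower (against 13.1%). These were Ccnk (1.82-fold, adjusted p = 0.00060), Ccnt2 (2.45-fold, adjusted p = 0.0083) and Cdk12 (1.49-fold, adjusted p = 0.017), which serve transcription elongation by RNA polymerase II. The call of Cdk12 was lost without IRF3-2D replicate 2 and without Ctrl replicate 2 or 3.

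**Figure D4:**
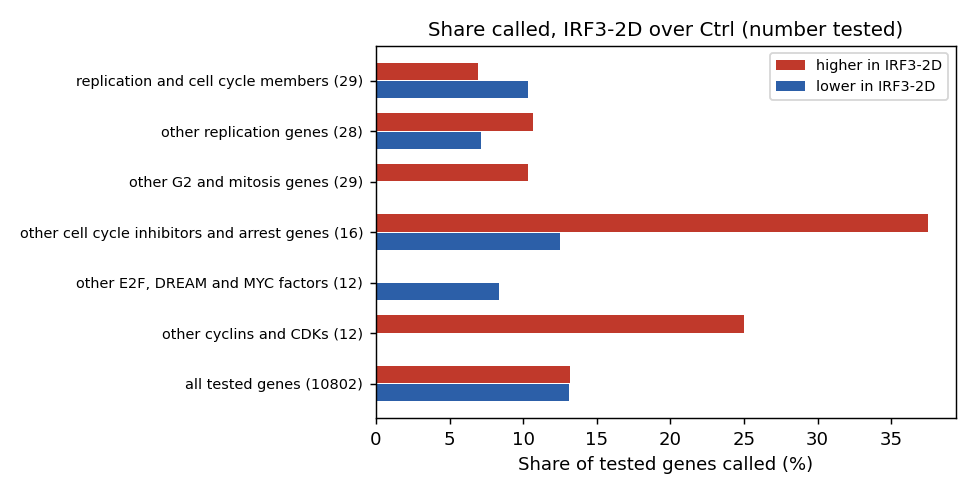
Share of tested genes called higher (red) or lower (blue) in IRF3-2D over Ctrl liver, in percent, for the members and 5 further lists, with the number tested in brackets. The members reach 6.9% higher and 10.3% lower, below the 13.2% and 13.1% of all tested genes, and the arrest genes reach 37.5% higher. All lists were chosen with earlier results of these data known.

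As a check of the labels, Irf3 itself was at 120 ± 15.3 CPM in IRF3-2D and 49.8 ± 9.35 CPM in Ctrl liver (SD, n = 3 each), without overlap (adjusted p = 0.0015 by edgeR). The library totals were 12054096 to 13606973 counts in IRF3-2D and 13940893 to 14830629 in Ctrl. TMM factors were 1.12 to 1.23 in IRF3-2D and 0.822 to 0.879 in Ctrl, and the 20 most abundant genes held 22.5% to 24.5% of the counts in IRF3-2D and 33.5% to 35.7% in Ctrl libraries.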

How the data were processed

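Liver samples of the IRF3-2D and Ctrl groups (3 each) were profiled by poly-A selected, strand-specific RNA-seq, per the labels' protocols. The authors deposited estimated counts per gene, already whole numbers and not normalized. The submitters' processing notes name GRCm38, mm10 and Salmon (version 1.2.1). How transcripts were summed to genes, with which annotation and strand setting, is not given in the sources used here. Symbols and coordinates come from GENCODE M21 on GRCm38, matched by identifier.

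Genes were kept by filterByExpr, scaled by TMM and tested with edgeR 4.0.16 (R 4.3.3) quasi-likelihood F-tests, group as the only term, on 10802 genes, with Benjamini-Hochberg adjustment at 0.05. Each standard error is the log2 fold change over the square root of F. The scripts were tested on simulated data with 200 changed genes, where 50% of 2-fold and 83% of 4-fold changes were called. Of the simulated calls, 8.33% were false. A gene that was not called may therefore still have changed. Intervals and floors cover counting error. Labels do not say that replicates are separate mice, and p-values then cover only the spread among these libraries, possibly a technical one. No library repeated another (chi-square over degrees of freedom 18.9 to 109.7 within groups).

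Members, lists and tests were chosen with earlier results of these data known. Named are all members and up to 4 called genes with the smallest adjusted p per further list; exceptions are marked, and a gene that this rule names is not reported here. Shared words are 31-base words of a gene's transcripts found in another gene's. Alternatives were DESeq2 1.42.0, limma-voom (limma 3.58.1), other scalings and filters, a replicate block, and each library left out. Promoters are from RefSeq (GRCm38.p6).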

Additional observations from a re-analysis of the deposited data

How the results depend on the processing

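The 5 called members kept their direction and their call under all 14 alternatives. The counts of 2 higher and 3 lower members were the same with RLE and upper-quartile scaling, with either other filter, with DESeq2, limma-voom and the replicate block (2 higher and 3 lower), and without any 1 library, except for 3 higher without Ctrl replicate 1. With library totals alone, 11 members were higher, 4500 of all genes were higher and 571 lower, and 40 of the 97 genes of the further lists were higher and 3 lower, against 15 and 5. Over all genes, leaving out single libraries gave 851 to 1312 higher and 920 to 1363 lower calls, against 1426 and 1418.

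The members' median log2 fold change of 0.61 lay between 0.37 and 0.68 with single libraries left out. Several uncalled members changed sign. With library totals alone the log2 fold change was 0.36 for Cdk6, 0.31 for Cdkn1b (called), 0.34 for E2f3 and 0.44 for Aurka, and the called fall of Rbl2, a pocket protein gene, became 0.0425. With single libraries left out, Cdk6 lay between -0.30 and 0.18, Rb1 between -0.12 and 0.11, Mki67 between -0.19 and 1.17, Bub1 between -0.41 and 0.91 and Aurka between -0.21 and 0.14. Aurka was 0.0033 with the replicate block. The cause was not tested. Deviations of same-numbered libraries correlated at 0.096, -0.034 and 0.045 over 10802 genes, against -0.105 to 0.064 for libraries with different numbers. With 3 libraries in each group this cannot show whether replicate numbers pair the samples. Counts limit 12 tested members with a mean under 50 counts, down to 7.17 for Bub1.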
